A study of Mus musculus with 9 samples.

Results

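The interferon regulatory factors are a family of DNA-binding proteins, and 8 of their genes, Irf1 to Irf5 and Irf7 to Irf9, were followed here in mouse thymocytes with a conditional deletion of the splicing factor gene Srsf1. They were chosen by name, as the rows of the deposited RNA-seq count table whose Ensembl IDs map to these symbols, 8 of 53715 rows. All 8 passed the filter on low counts, which 17351 rows passed. The SRSF1KO group held 2 libraries of genotype Srsf1fl/flLckcre/+, and the WT group held 3 libraries of genotype WT, for which the labels name neither a floxed allele nor Cre. Cre in the SRSF1KO mice is named for Lck, a kinase gene of the T lineage, so deletion is limited to cells in which that transgene acts. Both groups were C57BL/6 mice of 6 to 8 weeks, and the cells were sorted from thymus as TCRβ+CD69+CD24+CD4+CD8+, that is, double-positive thymocytes that have begun to receive T cell receptor (TCR) signals. Libraries were built by Smart-seq2, which amplifies full-length cDNA. The labels do not say whether replicates came from separate animals, so the p-values here cover only the variation among 5 libraries. Another 4 samples of the series, CLIP-seq with an SRSF1 antibody (2) or control IgG (2), were not analysed here.

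Interferon regulatory factors share an N-terminal domain that binds GAAA repeats, the core of the interferon-stimulated response element (ISRE). IRF3 and IRF7 are phosphorylated downstream of sensors of viral nucleic acids and switch on type I interferon genes. IRF9 joins STAT proteins in the complex ISGF3, through which type I interferon acts on the nucleus. IRF1 activates genes of MHC class I presentation and is needed for CD8 T cell development, while IRF2 binds the same sites and can oppose it. IRF4 and IRF8 bind DNA with partner proteins, and IRF4 is induced by TCR signalling in proportion to signal strength. IRF5 acts mainly in myeloid and B cells.

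The promoter windows of 5 of these genes are shown because they hold the sequence motifs through which interferon, STAT proteins or the basal transcription machinery act, and because Irf4, Irf7 and Irf1 had the largest differences below. Sequences are RefSeq, build GRCm38.p6, 5′ to 3′, from 250 bases before to 50 bases after an annotated start, and all 8 genes matched the promoter table, with 11 windows. Capitals mark matches on either strand to 3 motifs: the ISRE core GAAANNGAAA, the gamma-activated site (GAS) TTCNNNGAA, which STAT proteins bind, and the TATA box TATAAA.
Irf1 (chr11:53769764-53770063, plus strand): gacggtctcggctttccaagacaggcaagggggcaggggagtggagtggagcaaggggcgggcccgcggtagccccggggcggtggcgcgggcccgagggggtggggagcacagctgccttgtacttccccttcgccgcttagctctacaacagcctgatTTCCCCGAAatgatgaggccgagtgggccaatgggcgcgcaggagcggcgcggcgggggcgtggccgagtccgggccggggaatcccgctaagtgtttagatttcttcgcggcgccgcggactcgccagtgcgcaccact
Irf2 (chr8:46739495-46739794, plus strand): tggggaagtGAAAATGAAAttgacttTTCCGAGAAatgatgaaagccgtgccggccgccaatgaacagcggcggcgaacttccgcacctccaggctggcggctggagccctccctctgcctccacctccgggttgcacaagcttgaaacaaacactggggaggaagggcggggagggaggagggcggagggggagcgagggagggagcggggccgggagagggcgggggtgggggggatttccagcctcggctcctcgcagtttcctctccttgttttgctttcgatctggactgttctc
Irf4 (chr13:30748983-30749282, plus strand): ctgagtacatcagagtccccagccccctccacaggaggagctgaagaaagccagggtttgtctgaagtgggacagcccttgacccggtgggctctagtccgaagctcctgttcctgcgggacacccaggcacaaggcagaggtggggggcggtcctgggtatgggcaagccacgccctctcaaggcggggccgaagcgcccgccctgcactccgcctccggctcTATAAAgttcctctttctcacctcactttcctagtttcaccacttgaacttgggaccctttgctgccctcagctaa
Irf7 (chr7:141266375-141266674, minus strand): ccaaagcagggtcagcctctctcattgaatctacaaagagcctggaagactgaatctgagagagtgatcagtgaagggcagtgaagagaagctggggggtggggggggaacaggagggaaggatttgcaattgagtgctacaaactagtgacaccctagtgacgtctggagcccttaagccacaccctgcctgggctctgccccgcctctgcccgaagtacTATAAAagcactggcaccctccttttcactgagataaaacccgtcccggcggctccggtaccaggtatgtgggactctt
Irf8 (chr8:120736108-120736407, plus strand): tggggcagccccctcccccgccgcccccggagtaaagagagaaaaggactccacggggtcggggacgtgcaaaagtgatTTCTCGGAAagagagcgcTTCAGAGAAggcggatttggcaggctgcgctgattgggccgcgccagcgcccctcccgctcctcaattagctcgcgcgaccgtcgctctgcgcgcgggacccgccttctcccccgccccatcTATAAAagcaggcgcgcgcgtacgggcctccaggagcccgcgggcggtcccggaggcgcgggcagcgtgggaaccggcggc

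Counted from the start, where the first transcribed base is 1, Irf1 held a GAS match at -90 to -82. Irf2 held the ISRE core at -241 to -232 and a GAS match at -224 to -216. Irf8 held GAS matches at -171 to -163 and at -153 to -145. A TATA box lay at -26 to -21 in Irf4, at -29 to -24 in Irf7 and at -31 to -26 in Irf8. The windows of Irf3, Irf5 and Irf9, and the second windows of Irf1 and Irf8, held none of these letters. Of 32851 windows of the same length in the table, 3.44% held the ISRE core, 8.3% GAS and 13.6% the TATA box. A match describes letters and was not tested as a binding site. The genes lie on several chromosomes of GRCm38: Irf1 on 11 (53770014 to 53778374), Irf2 on 8 (46739745 to 46847458), Irf3 on 7 (44997648 to 45002848), Irf4 on 13 (30749233 to 30766981), Irf5 on 6 (29526130 to 29541869), Irf7 on 7 (141263183 to 141266499), Irf8 on 8 (120736358 to 120756694) and Irf9 on 14 (55603985 to 55610030). The end of Irf5 overlaps Tnpo3 over 1043 bases and Irf2 overlaps the noncoding genes Gm31172 and Gm39170. Whether counting used strand is not given in the sources used here, and reads in those stretches cannot be assigned to one gene.

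The libraries held 36026006 and 36062595 counts in SRSF1KO and 36487359 to 38985285 counts in WT. Srsf1 stood at 42.6 and 30.9 CPM (read counts scaled to library size and composition) in SRSF1KO, against 96.9, 122.7 and 103.1 CPM in WT (log2 fold change -1.55 ± 0.19 SE; edgeR adjusted p = 0.0483). In every library thymocyte markers were abundant: 14 of them, among them Cd3e, Cd4, Cd8a and Rag1, summed to 15988 to 18184 CPM in SRSF1KO and 15395 to 17174 CPM in WT. Of these, 7 had a negative and 7 a positive log2 fold change, and edgeR called none. DESeq2 called Rag1, Cd4 and Themis higher and none lower (2.22% and 3.42% over all genes). Rag1 stood at 1142 and 766 CPM in SRSF1KO, against 663, 513 and 621 CPM in WT. Markers of other cells were low. The 8 B cell markers summed to 52.9 and 49.1 CPM in SRSF1KO and 34.2 to 53.7 CPM in WT. The lowest of them by mean, Pax5, was at 0.31 CPM or less in every library. The highest by mean, Cd79b, was at 30.5 and 31.4 CPM in SRSF1KO and 14.5 to 37.8 CPM in WT. The 15 markers of dendritic cells and macrophages summed to 424 and 293 CPM in SRSF1KO and 359 to 583 CPM in WT. Most of this came from Cd74 and MHC class II genes. The 6 thymic epithelial markers summed to 25.8 and 13.8 CPM in SRSF1KO and 14.3 to 14.5 CPM in WT, and 8 markers of NK and γδ T cells to 108 and 89.4 CPM in SRSF1KO and 59.9 to 101 CPM in WT. The 5 erythroid genes stood apart, at 99.1 and 22.9 CPM in SRSF1KO and 2.54 to 12.7 CPM in WT. Among these markers of other cells edgeR called none. DESeq2 called Xcr1 of dendritic cells and Klrd1 of NK cells lower (3.42% over all genes). Trdc of γδ T cells and the erythroid genes Hba-a2 and Hbb-bt were called higher by DESeq2 (2.22% over all genes). Xcr1 was at 1.57 CPM or less in every library. The part of these cells in the results below was not tested. SRSF1KO replicate 1 and WT replicate 2 had more counts of the Y-linked Ddx3y than of Xist, and the other 3 libraries the reverse. Each group thus mixed a male and a female pattern. WT replicate 2 also held 1369 Xist counts, against 282 in SRSF1KO replicate 1, and WT replicate 3 held 141 Ddx3y counts. Male-pattern differences below compare only SRSF1KO replicate 1 with WT replicate 2. Female-pattern differences compare SRSF1KO replicate 2 with WT replicates 1 and 3.

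Irf4, Irf7, Irf9 and Irf1 lay lower in both SRSF1KO libraries than in any WT library, and Irf2, Irf3, Irf5 and Irf8 overlapped between the groups. Below all WT libraries lay 17.8% of tested genes. None of the 8 factors passed an adjusted p of 0.05 with edgeR's quasi-likelihood test, which called 46 of 17351 genes (0.265%), while the 4 lower factors had an unadjusted p under 0.05, as had 8.45% of tested genes in that direction (5.9% in the other). DESeq2 called those 4 lower and no factor higher, against 3.42% of the genes it tested called lower, and limma-voom called none of the 8 (0.478% of all genes). The median log2 fold change over the 8 factors was -0.32, against -0.01 over all genes tested, or -0.66 without SRSF1KO replicate 2, and 7 of the 8 were negative, against 50.6% of all tested genes. In bulk samples, fewer cells that express a gene and less RNA per cell cannot be told apart. The files give no transcript lengths, so levels are compared between libraries and not between genes.

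**Figure D1:**
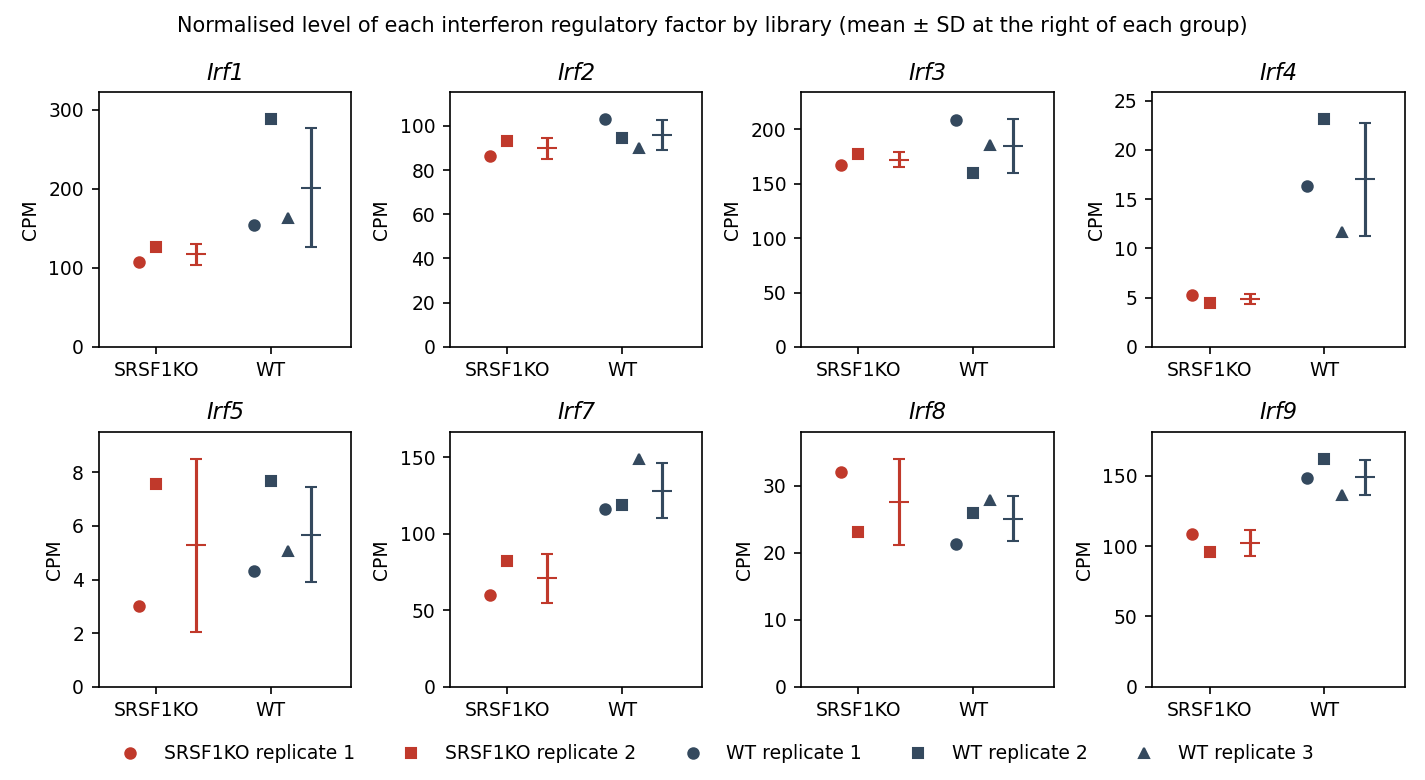
Level of each interferon regulatory factor in CPM (linear axes from 0), with SRSF1KO libraries in red at the left and WT libraries in dark blue at the right of each panel; the bars give mean ± SD (n = 2 and n = 3). For Irf1, Irf4, Irf7 and Irf9 both SRSF1KO points lie below all WT points, and in the other panels the groups overlap.

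Irf4 (ENSMUSG00000021356.10), the factor induced by TCR signalling, differed most. It stood at 5.24 and 4.50 CPM in SRSF1KO, against 16.3, 23.1 and 11.7 CPM in WT. The lowest WT library was thus above both SRSF1KO libraries, which lay close together, while WT libraries spread widely. The means were 4.87 ± 0.52 CPM in SRSF1KO (SD, n = 2) and 17.0 ± 5.75 CPM in WT (SD, n = 3). On the log2 scale the fold change was -1.80 ± 0.36 (SE), with a 95% interval from -2.65 to -0.96 that is not adjusted for the number of genes. The adjusted p was 0.11 with edgeR and 7.8e-05 with DESeq2. It rests on 189 and 161 counts in SRSF1KO and 450 to 841 counts in WT. Within the male pattern the log2 difference (SRSF1KO minus WT) was -2.14, and within the female pattern it was -1.61. The male pattern holds WT replicate 2, the highest library for Irf4, and without that library the log2 fold change was -1.52. That library was also the highest for Cd69, at 226 and 228 CPM in SRSF1KO, against 203, 469 and 271 CPM in WT. Whether this bears on the Irf4 value was not tested.

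Irf8 (ENSMUSG00000041515.9), the closest relative of Irf4 in the family and best known from myeloid and B cells, overlapped between the groups. Its level was 32.1 and 23.1 CPM in SRSF1KO, against 21.3, 26.0 and 27.9 CPM in WT. The SRSF1KO libraries held both a value above the WT range and one inside it. Its log2 fold change was 0.14 ± 0.23 (SE; adjusted p = 0.864 with edgeR, interval -0.40 to 0.67), and it was -0.12 without SRSF1KO replicate 1. The markers of myeloid and B cells, in which Irf8 is also expressed, are given above.

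Irf7 (ENSMUSG00000025498.15), the factor that amplifies type I interferon production, stood at 59.7 and 82.2 CPM in SRSF1KO, against 116.5, 119.1 and 148.9 CPM in WT. Both SRSF1KO libraries were below the lowest WT library, replicate 1 the more so. The log2 fold change was -0.85 ± 0.18 (SE), with an interval from -1.27 to -0.43. The adjusted p was 0.120 with edgeR and 7.1e-04 with DESeq2. The log2 difference was -0.996 within the male pattern and -0.68 within the female pattern. Irf3 (ENSMUSG00000003184.15), its constitutive relative, stood at 167.2 and 177.4 CPM in SRSF1KO, against 209.0, 159.7 and 185.4 CPM in WT. Its SRSF1KO libraries lay inside the WT range. The log2 fold change of Irf3 was -0.10 ± 0.13 (SE; adjusted p = 0.815 with edgeR), with an interval from -0.41 to 0.20 whose lower end is above the value measured for Irf7, and it was 0.01 without WT replicate 1.

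Irf9 (ENSMUSG00000002325.15), the DNA-binding subunit of ISGF3, had the least spread between WT libraries relative to its mean among the lower factors (coefficient of variation 8.55%). It stood at 108.8 and 95.7 CPM in SRSF1KO, against 148.3, 162.0 and 136.5 CPM in WT. The means were 102.3 ± 9.30 CPM in SRSF1KO (SD, n = 2) and 148.9 ± 12.7 CPM in WT (SD, n = 3). This gave a log2 fold change of -0.54 ± 0.12 (SE), with an interval from -0.83 to -0.26. The adjusted p was 0.127 with edgeR and 0.0116 with DESeq2. The log2 difference was -0.57 within each sex-linked pattern.

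Irf1 (ENSMUSG00000018899.16), the activator of class I presentation genes, stood at 107.8 and 126.4 CPM in SRSF1KO, against 153.9, 288.0 and 163.0 CPM in WT. WT replicate 2 stood far above the other WT libraries, which were nearer to SRSF1KO. The log2 fold change was -0.78 ± 0.27 (SE), with an interval from -1.42 to -0.15, and -0.44 without WT replicate 2. The adjusted p was 0.263 with edgeR and 0.0272 with DESeq2. The log2 difference was -1.42 within the male pattern, which holds WT replicate 2, and -0.32 within the female pattern. That library was also high for Tnfaip3, an inhibitor of NF-κB signalling, at 292 and 266 CPM in SRSF1KO, against 386, 1252 and 290 CPM in WT replicates 1, 2 and 3. It was high as well for Junb, an AP-1 subunit, at 141 and 308 CPM in SRSF1KO, against 454, 742 and 283 CPM in WT. Whether these bear on the Irf1 value was not tested.

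Irf2 (ENSMUSG00000031627.9), the antagonist of Irf1, was nearly level. It stood at 86.3 and 93.3 CPM in SRSF1KO, against 103.0, 94.6 and 89.8 CPM in WT, and the groups overlapped. Its log2 fold change was -0.09 ± 0.12 (SE; adjusted p = 0.810 with edgeR), and its interval from -0.37 to 0.18 is the narrowest of the 8. Irf5 (ENSMUSG00000029771.12) was the least precise, at 3.00 and 7.55 CPM in SRSF1KO, against 4.30, 7.67 and 5.06 CPM in WT. The SRSF1KO libraries spanned most of the range of all 5. Its log2 fold change of -0.11 ± 0.50 (SE; adjusted p = 0.966 with edgeR) has an interval from -1.28 to 1.07, turned to 0.17 without WT replicate 2 and to 0.41 without SRSF1KO replicate 1, and rests on 108 to 279 counts a library.

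**Figure D2:**
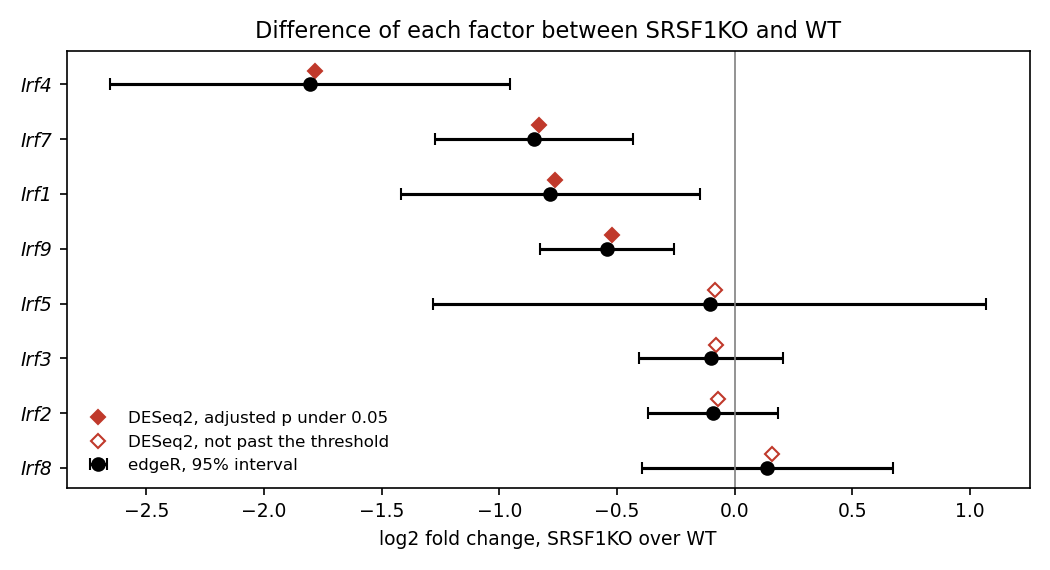
Log2 fold change of each factor, SRSF1KO over WT, with edgeR's 95% interval in black (not adjusted for the number of genes) and DESeq2's estimate as a red diamond, filled where its adjusted p is under 0.05. Irf4, Irf7, Irf1 and Irf9 have intervals below 0, and Irf5, Irf3, Irf2 and Irf8 have intervals across 0.

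Ratios of counts between related factors within a library do not depend on how libraries are scaled, and 3 pairs were compared, chosen by kinship after their values were seen. The count ratio of Irf4 to Irf8 was 0.163 and 0.195 in SRSF1KO, against 0.765, 0.889 and 0.419 in WT. Irf8 counts thus exceeded Irf4 counts in all 5 libraries, by more in SRSF1KO. The mean log2 ratio differed by -1.88 (SRSF1KO minus WT), with an SD over libraries of 0.18 in SRSF1KO and 0.57 in WT. The count ratio of Irf7 to Irf3 was 0.357 and 0.463 in SRSF1KO, against 0.557, 0.746 and 0.803 in WT, a log2 difference of -0.77. The count ratio of Irf1 to Irf2 was 1.25 and 1.36 in SRSF1KO, against 1.49, 3.05 and 1.81 in WT, a log2 difference of -0.64 that was -0.34 without WT replicate 2. In none of the pairs did the groups overlap. Each pair set a factor already seen below all WT libraries over one that was not, so this adds no support of its own. The p-values of the pairs share this limit. The two-sided exact permutation test over samples gave p = 0.1 for Irf4 to Irf8, the smallest it allows with 3 libraries against 2, and p = 0.2 for each of the others. Adjusted over the 3 pairs (Benjamini-Hochberg), the exact p was 0.2 for each. Applied to the level of each factor, the same exact permutation test gave p = 0.1 for Irf4, Irf7 and Irf9, p = 0.2 for Irf1 and 0.4 to 0.9 for the other 4.

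**Figure D3:**
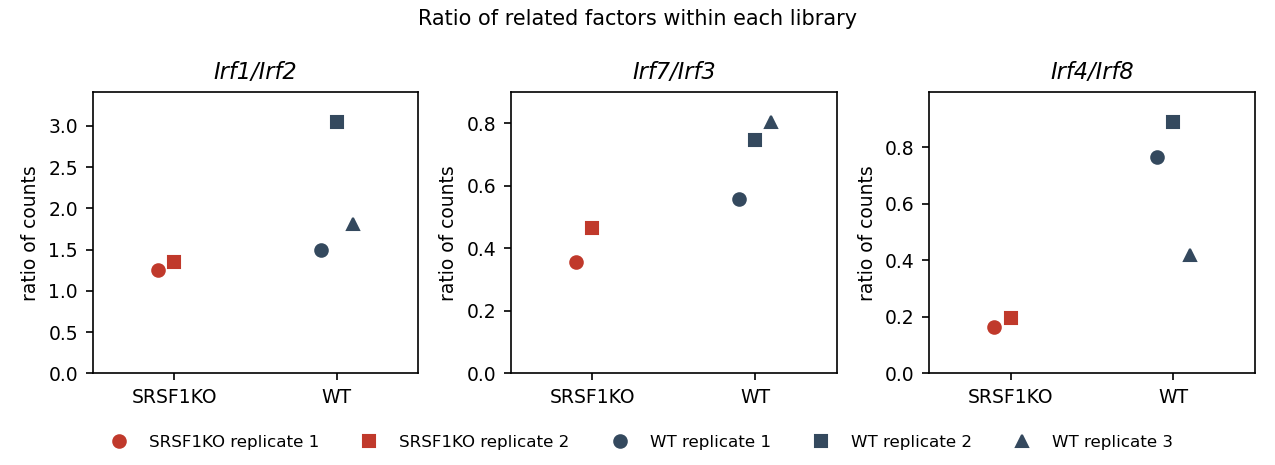
Ratio of counts of Irf1 to Irf2, Irf7 to Irf3 and Irf4 to Irf8 within each library (linear axes from 0), with SRSF1KO libraries in red at the left and WT libraries in dark blue at the right. In each panel both SRSF1KO points lie below all WT points, with the widest gap relative to level for Irf4 to Irf8.

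The profiles most like those of Irf4 and Irf7, the factors with the smallest p, were looked up among 9346 genes that averaged 5 CPM or more, by the root mean square difference of log2 CPM centred over the 5 libraries. For Irf4 these were Ssh1, a cofilin phosphatase gene (0.12), Cisd3, an iron-sulphur protein gene of mitochondria (0.25), and Srsf1 itself (0.25). Ssh1 stood at 4.80 and 3.78 CPM in SRSF1KO, against 12.5, 19.9 and 8.49 CPM in WT, with the same order of WT libraries as Irf4. For Irf7 they were Rab37, a small GTPase gene of secretion (0.06), Elac1, a tRNA-processing nuclease gene (0.06), and Crebl2 (0.07). Rab37 stood at 43.6 and 58.1 CPM in SRSF1KO, against 88.7, 91.9 and 104.1 CPM in WT. This measure over 5 libraries in 2 groups includes the difference between the groups.

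Genes that act before the factors had values on both sides of 0. Of 22 tested genes of the sensors, kinases and adaptors that activate IRF3, IRF5 and IRF7, none passed with edgeR, 6 lower and 1 higher had an unadjusted p under 0.05, the median log2 fold change was -0.23, and DESeq2 called 2 lower. Over all genes, 8.45% lower and 5.9% higher had an unadjusted p under 0.05, and DESeq2 called 3.42% lower and 2.22% higher. Ifih1, the RNA sensor MDA5, stood at 23.5 and 17.2 CPM in SRSF1KO, against 37.7, 42.8 and 33.7 CPM in WT (log2 fold change -0.91 ± 0.22 SE; edgeR adjusted p = 0.139). Tank, an adaptor of the kinase TBK1, had a log2 fold change of -0.52 and Sting1, the adaptor of DNA sensing, of -0.41, with edgeR adjusted p of 0.127 and 0.196. These 3 genes were named for the smallest p in the list, and their SRSF1KO libraries were below all WT libraries. In the whole list 7 of the 22 tested genes lay below and 2 above all WT libraries. Of all tested genes 17.8% lay below, and the share that lay above is not given here.

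Of the 9 interferon receptor, JAK and STAT genes, none passed with edgeR (3 lower and 1 higher at an unadjusted p under 0.05) and the median was -0.20, with 2 called lower and 1 higher by DESeq2 (over all genes 3.42% lower and 2.22% higher, and 8.45% and 5.9% at an unadjusted p under 0.05). Stat2, a partner of IRF9 and chosen after its values were seen, stood at 112.7 and 111.1 CPM in SRSF1KO, against 94.8, 96.8 and 106.6 CPM in WT (log2 fold change 0.17 ± 0.11 SE; edgeR adjusted p = 0.543). Irf9 thus lay below, and Stat2 above, all WT libraries. Jak2 had a log2 fold change of -0.75 and Ifngr1, a subunit of the interferon γ receptor, of 0.51 (0.31 without SRSF1KO replicate 1), neither past the edgeR threshold. Ifnb1, the gene of interferon β, had 0 counts in every library.

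Partners of IRF4 and IRF8 had a median of 0.16 over 16 tested genes, none called by edgeR (3 lower and 2 higher at an unadjusted p under 0.05) and 1 called higher by DESeq2. Over all genes the shares were 8.45% lower and 5.9% higher at an unadjusted p under 0.05, and 3.42% and 2.22% with DESeq2. Ikzf1, the lymphoid factor Ikaros, stood at 873 and 981 CPM in SRSF1KO, against 700, 642 and 739 CPM in WT (log2 fold change 0.42 ± 0.10 SE; edgeR adjusted p = 0.135). Fos, an AP-1 subunit, had a log2 fold change of -1.15 and Junb of -1.13, with edgeR adjusted p of 0.261 and 0.312. Without SRSF1KO replicate 1 these values were -0.74 for Fos and -0.68 for Junb, and Junb was at -0.71 without WT replicate 2 and -1.78 without SRSF1KO replicate 2. Among 11 corepressors and inhibitors none passed with edgeR (1 lower at an unadjusted p under 0.05), DESeq2 called 1 lower, and the median was -0.22. Rbck1, a subunit of the linear ubiquitin ligase that has been linked to turnover of IRF3, stood at 227 and 198 CPM in SRSF1KO, against 318, 306 and 338 CPM in WT (log2 fold change -0.59 ± 0.10 SE; edgeR adjusted p = 0.0798). Eif4ebp1, a translation repressor of the family that limits Irf7 mRNA translation, had a log2 fold change of -0.54 and Tnfaip3 of -1.20, neither past the threshold. The Tnfaip3 value rests on WT replicate 2, and without that library it was -0.28.

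Known targets of the factors mostly had values below 0. Of 18 genes known as IRF1 targets the median was -0.58 (-0.01 over all genes tested) and 15 were negative (50.6% of all tested genes). In this list edgeR called 1 lower and none higher (9 lower and 1 higher at an unadjusted p under 0.05). DESeq2 called 7 lower and 1 higher. Over all genes edgeR called 0.265%, and DESeq2 called 3.42% lower and 2.22% higher. At an unadjusted p under 0.05 the shares were 8.45% lower and 5.9% higher. The lists were chosen with earlier results of these data known. B2m, the light chain of MHC class I, fell to 1120 and 1363 CPM in SRSF1KO, against 2015, 2268 and 2235 CPM in WT (log2 fold change -0.81 ± 0.11 SE; edgeR adjusted p = 0.0483). That call, like every other edgeR call, was lost without WT replicate 1, 2 or 3. Psmb9, an immunoproteasome subunit, had a log2 fold change of -0.78 and Tap1, the peptide transporter, of -0.64, with edgeR adjusted p of 0.0858 and 0.0877. Of 21 tested genes known as targets of ISGF3 or IRF7 the median was -0.57, 18 were negative, and edgeR called none (9 lower at an unadjusted p under 0.05), while DESeq2 called 7 lower. Oas3, a sensor of double-stranded RNA, stood at 27.8 and 40.6 CPM in SRSF1KO, against 75.7, 79.5 and 96.7 CPM in WT (log2 fold change -1.29 ± 0.21 SE; edgeR adjusted p = 0.0637). Zbp1, a nucleic acid sensor of cell death, had a log2 fold change of -0.86 and the antiviral GTPase gene Mx1 of -1.77, with edgeR adjusted p of 0.0752 and 0.128.

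TCR-induced genes, which are switched on along with Irf4, lay on both sides of 0. Over 16 such genes the median was 0.04, with 7 negative and 9 positive, edgeR called none (3 lower and 2 higher at an unadjusted p under 0.05), DESeq2 called 2 lower and 1 higher, and their summed level was 2401 and 2700 CPM in SRSF1KO, against 2336, 2529 and 2425 CPM in WT. Tnfrsf9, the costimulatory receptor 4-1BB, stood at 48.3 and 49.8 CPM in SRSF1KO, against 80.2, 79.0 and 114.4 CPM in WT (log2 fold change -0.89 ± 0.19 SE; edgeR adjusted p = 0.122). Pdcd1, the receptor PD-1, was on the other side, at 102.9 and 104.5 CPM in SRSF1KO, against 45.1, 46.3 and 69.8 CPM in WT (0.95 ± 0.20 SE; edgeR adjusted p = 0.122). Myc had a log2 fold change of -0.72 (edgeR adjusted p = 0.169), and of -0.45 without SRSF1KO replicate 1. These 3 genes were named for the smallest p in the list, and the SRSF1KO and WT libraries did not overlap for any of them. In the whole list 4 genes lay below and 3 above all WT libraries, while 17.8% of all tested genes lay below. The share of all tested genes lying above is not given here, so the count of 3 cannot be set against it. Shares over all genes were 8.45% lower and 5.9% higher at an unadjusted p under 0.05 with edgeR. With DESeq2 they were 3.42% called lower and 2.22% called higher.

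**Figure D4:**
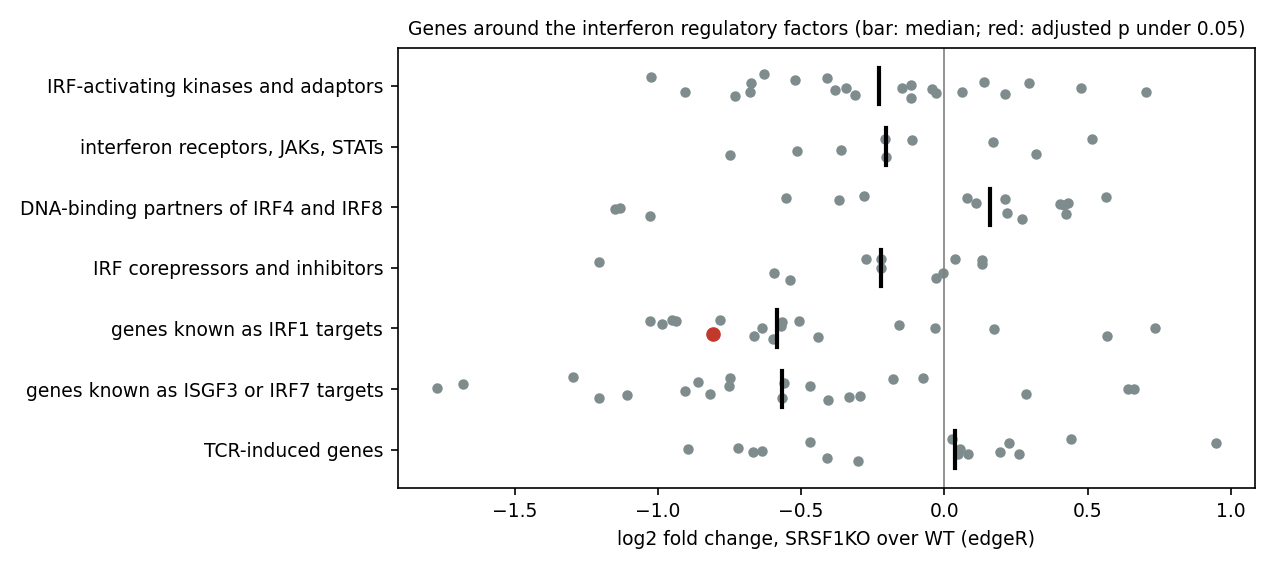
Log2 fold change (SRSF1KO over WT, edgeR) of each tested gene in 7 lists around the interferon regulatory factors, with the list's median as a black bar and genes with an adjusted p under 0.05 in red. The medians of the IRF1 target list (-0.58) and the ISGF3 or IRF7 target list (-0.57) lie furthest from 0, and B2m is the only red point.

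**Figure D5:**
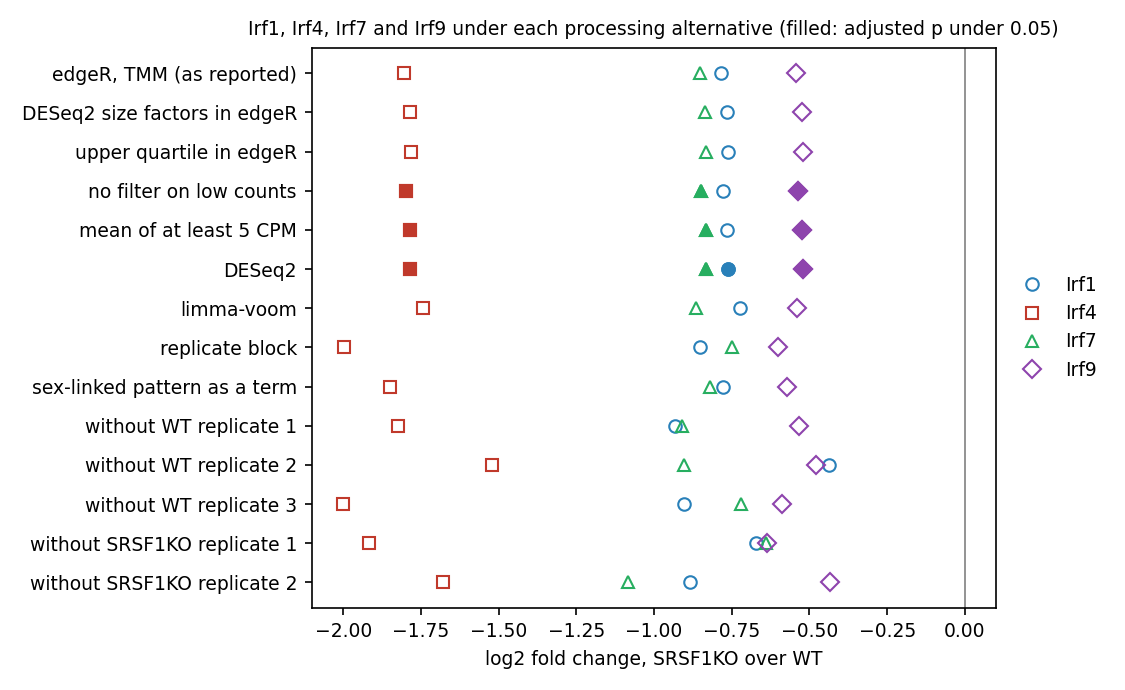
Log2 fold change of Irf1, Irf4, Irf7 and Irf9, SRSF1KO over WT, under the reported setting and 13 alternatives, filled where the adjusted p is under 0.05. All points lie below 0, and filled points appear with DESeq2, with no count filter and with a filter at 5 CPM on average.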

How the data were processed

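Smart-seq2 libraries were made from column-purified RNA, per the labels' protocols. The authors deposited raw counts of reads per Ensembl gene, not normalised. Per the submitters' processing notes, HTSeq 0.6.1, Bowtie2 2.1.0, DESeq2 1.20.0, HOMER 4.9.1, Trim Galore, cutadapt 1.17, FastQC 0.11.5 and build mm10 were used, with no role named. Symbols came from a names table (53620 of 53715 IDs matched). edgeR 4.0.16 in R 4.3.3 (TMM, filterByExpr, robust glmQLFit, glmQLFTest, group as the only term) was fitted on the whole table and p-values were adjusted by Benjamini-Hochberg over 17351 genes. edgeR's common coefficient of biological variation came to 0.494. Standard errors came from the fold change and the F statistic. DESeq2 1.42.0 and limma-voom (limma 3.58.1) were alternatives. The permutation test used log2(CPM + 1), and profile likeness log2(CPM + 0.5). The scripts were tested on simulated counts. The members, lists and tests were chosen with earlier results of these data known. Some items are not reported here. Beside the 8 factors and Srsf1, up to 3 genes per list with the smallest p and a mean of at least 1 CPM were named, and 3 likeness neighbours for each of 2 factors. Other alternatives were other scalings, other count filters, a replicate block, a term for the sex-linked pattern, and leaving out each library.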

Additional observations from a re-analysis of the deposited data

How the results depend on the processing

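Irf1, Irf2, Irf4, Irf7 and Irf9 kept a negative log2 fold change under all 13 alternatives, between -2.00 and -1.52 for Irf4, -1.08 and -0.64 for Irf7, -0.64 and -0.43 for Irf9, -0.93 and -0.44 for Irf1. The sign turned for Irf3 without WT replicate 1 (0.0075), for Irf5 without WT replicate 2 (0.17) or SRSF1KO replicate 1 (0.41), and for Irf8 without SRSF1KO replicate 1 (-0.12). With 1 library left out these ranged from -0.20 to 0.0075 for Irf3, from -0.90 to 0.41 for Irf5 and from -0.12 to 0.38 for Irf8. The factors called numbered 0 as reported, 4 with DESeq2 and 3 (Irf4, Irf7 and Irf9) both with no count filter and with a filter at 5 CPM on average. The count was 0 under the other 10 alternatives, and their median fold change was -0.66 without SRSF1KO replicate 2. The genes called over the whole table, 46 (37 lower, 9 higher; 2490 at an unadjusted p under 0.05), were 10 (7 and 3) with DESeq2's size factors in edgeR, 544 (346 and 198) with no count filter, 376 (233 and 143) with a filter at 5 CPM on average, 1023 (621 and 402) with DESeq2, 83 (62 and 21) with limma-voom, and 5 (5 and 0) with the sex-linked pattern as a term. Leaving out 1 library gave 0 to 88 calls (0 to 67 lower, 0 to 21 higher): 0 without WT replicate 1, 2 or 3 (1903 to 2079 genes at an unadjusted p under 0.05), 11 without SRSF1KO replicate 1 and 88 without SRSF1KO replicate 2. A lone SRSF1KO library is taken to vary as WT libraries do. The cause was not tested. With the replicate number as a block 0 genes were called in either direction (1640 at an unadjusted p under 0.05) and 0 factors. Deviations of same-numbered libraries correlated at -0.046 and -0.013. With 2 SRSF1KO libraries their deviations from the group mean mirror each other, so these values cannot tell whether the numbers pair the samples. The alternative of other transcript lengths was not run, since no lengths were used.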
